A study of Mus musculus with 44 samples.

Results

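Cultured mouse cortical neurons that received a lentivirus expressing the microRNA miR-155 were compared with a parallel culture that received a lentivirus expressing only GFP. The comparison used 4 of the 44 samples of the series, chosen by their labels: 1 RNA-seq library and 1 TAIL-seq library from each culture. RNA-seq counts reads along coding regions, and TAIL-seq counts mRNA 3′ ends (tags) and measures the poly(A) tail of each. In the rest of the series, other cultures, hippocampus, adult cortex and visual cortex of mice were profiled. Ribosome-profiling libraries of the miRNA cultures were not used here because their labels contradict themselves, so no statement on translation is made.

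Both cultures came from the cortex of male and female mouse pups taken on the day of birth or the day after, were treated with AraC, which kills dividing cells such as glia, were transduced in the first week and were harvested after 14 days in vitro (DIV14). The virus carried EGFP under a synapsin promoter, which is active in neurons, and in the miR-155 vector the miR-155 hairpin sat in the 3′ UTR of EGFP. Glia in the dish should therefore express little of either construct, and RNA of glia is part of every library. Each culture was 1 plate with 1 library per assay, so no statistical test could be made, and every interval of a read or tag value covers counting error only, not differences between plates. Whether both plates came from the same litters or preparation batch is not stated, so batch and virus cannot be told apart. In addition, a culture transduced with the analogous miR-1 virus and an untransduced DIV14 culture, each also with 1 library per assay, served as alternative controls.

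A miRNA loaded into an Argonaute protein pairs through its seed, near its 5′ end, with complementary sites in mRNAs, mostly in the 3′ UTR, and recruits deadenylases and decapping factors that shorten the life of the mRNA. Sites are ranked by the extent of the match: the 8mer is the strongest on average, followed by the 7mer-m8, the 7mer-A1 and the 6mer. miR-155 is best known from activated immune cells, where it regulates inflammatory signalling and lymphocyte function, and neurons normally contain little of it.

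The mature sequence is shown because it defines every site class used here. mmu-miR-155-5p lies at chr16:84714143-84714165 on the + strand (GRCm38.p6, RefSeq) and its seed, bases 2 to 8, is in capitals.
miR-155-5p: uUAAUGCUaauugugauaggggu
The matching sites, read on the sense strand of the mRNA, are AGCATTAA (8mer), AGCATTA (7mer-m8), GCATTAA (7mer-A1) and GCATTA (6mer), and each mRNA was classed by its best 3′-UTR site, since the shorter motifs lie inside the 8mer. Of 15021 3′ UTRs searched, 456 contained an 8mer (3.04%) and 1416 contained a 7mer as their best site.

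The 3′-UTR 8mers below show the site (capitals) with its flanks, as RefSeq gives them in GRCm38.p6. The first 6 belong to mRNAs that were among the most reduced in the miR-155 culture, and the last 3 to mRNAs with the same 8 letters that were not reduced.
Lgalsl, chr11:20823710-20823739, − strand: tggcattttccAGCATTAAtgtaaagataa
Nfe2l2, chr2:75675795-75675824, − strand: aaactttacaaAGCATTAAagtctcaatgt
Armcx2, chrX:134804461-134804490, − strand: tacactcgggaAGCATTAAcagtgagacac
Csnk1g2, chr10:80640243-80640272, + strand: tccccttcgagAGCATTAActatttaaacc
Necap1, chr6:122888130-122888159, + strand: atttgaagcatAGCATTAAtttatactcac
Ndufs1, chr1:63143628-63143657, − strand: aattgtgtgcaAGCATTAActagtttaata
Gria2, chr3:80687550-80687579, − strand: gttaattaaaaAGCATTAAtctatatagat
Nlgn1, chr3:25431341-25431370, − strand: gatattgagctAGCATTAAaaaaaatctac
Trim44, chr2:102302217-102302246, − strand: ttaaccagaaaAGCATTAAacacagcacag

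The RNA-seq libraries held 448022 reads on genes in the GFP culture and 2111244 in the miR-155 culture, and the TAIL-seq libraries held 389654 and 480037 tags. Reads were therefore normalised to 1000000 reads on genes, and tags likewise (normalised reads and tags below). RNA changes were computed for 4483 mRNAs with at least 10 RPM as deposited by the authors (24.4 reads) in the GFP culture, and tag changes for 4179 mRNAs with at least 20 GFP tags. Because this minimum was set on the GFP value alone, it favours genes that were high there by chance. With the minimum set on the mean of both cultures, the 8mer value below was −0.35 in place of −0.40. Median depth was 51 reads and 44 tags per mRNA in the GFP culture, which limits what can be seen: the SD of log2 RNA changes was 0.35, of which counting alone would give 0.23. Neuronal genes were abundant and the defining microglial genes close to absent, as detailed with the marker genes.

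mRNAs with a 3′-UTR site to miR-155 were lower in the miR-155 culture in both assays, most for 8mers, less for 7mers and least for 6mers. After adjustment for 3′-UTR length, the mean log2 RNA change of 8mer mRNAs relative to the median of no-site mRNAs (those without the 6-nt seed match anywhere in the transcript) was −0.40 (counting interval −0.44 to −0.36; n = 164). The 7mer-m8 and 7mer-A1 classes could not be separated, with −0.24 (−0.27 to −0.21, n = 305) and −0.24 (−0.27 to −0.21, n = 214), and 6mer mRNAs had −0.10 (−0.13 to −0.07, n = 367). TAIL-seq tags, which were separate libraries from the same cultures, gave −0.47 (−0.52 to −0.41, n = 139) for 8mers, −0.23 (−0.27 to −0.19, n = 256) for 7mer-m8 sites, −0.25 (−0.29 to −0.20, n = 203) for 7mer-A1 sites and −0.10 (−0.14 to −0.06, n = 328) for 6mers. An average 8mer mRNA thus retained 0.757 of its RNA reads and 0.724 of its tags relative to no-site mRNAs.

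The reduction was broad rather than limited to a few mRNAs. Before adjustment, RNA of 80.5% of the 8mer mRNAs was lower in the miR-155 culture, compared with 47.9% of the 2786 no-site mRNAs. At a threshold of 1.5-fold, 41 of 164 8mer mRNAs were lower (25.0%), whereas the share was 6.83% over all mRNAs and 4.34% for no-site mRNAs. For tags, 44 of 139 8mer mRNAs were lower by 1.5-fold (31.7%), against 9.93% of all mRNAs. In the opposite direction, 1 8mer mRNA was higher by 1.5-fold in RNA-seq and 0 were in tags, at shares over all mRNAs of 2.54% and 3.28%. The change was similar across abundance bins: 8mer mRNAs had median log2 RNA changes of −0.34 at 10 to 20 RPM (n = 78), −0.35 at 20 to 50 RPM (n = 51) and −0.29 at 50 RPM or more (n = 35), and the no-site medians in these bins lay within 0.03 of 0.

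**Figure D1:**
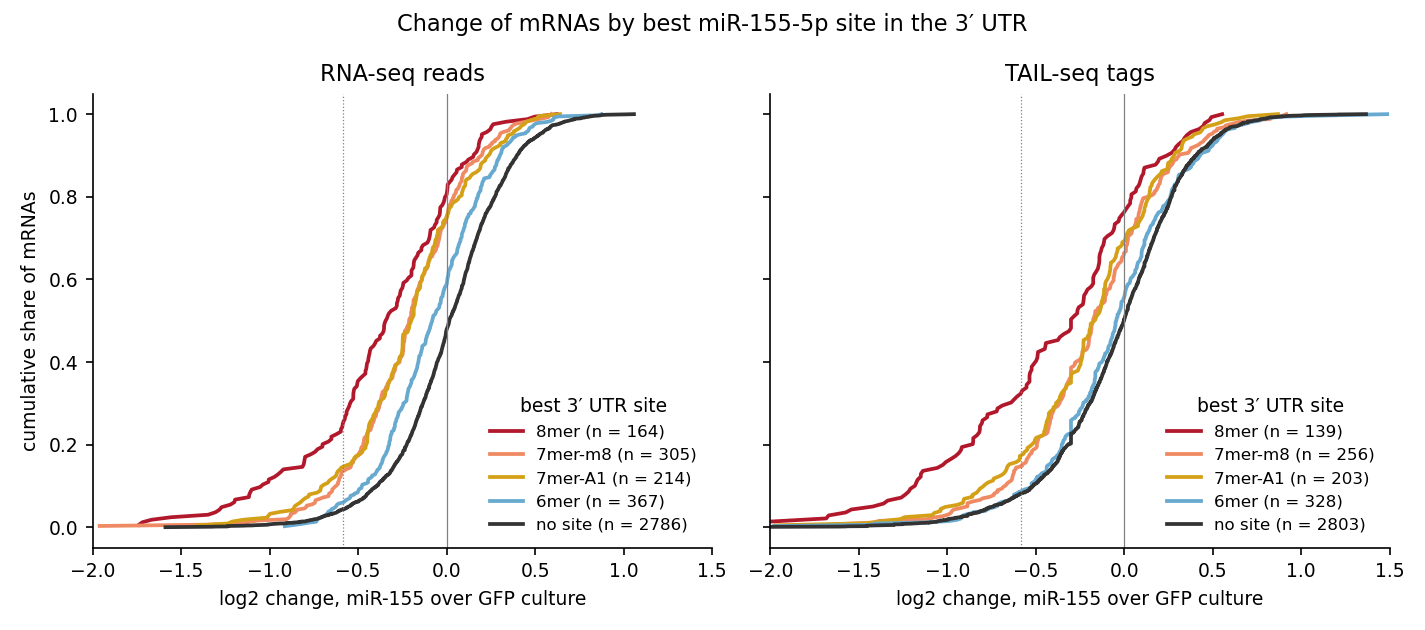
Cumulative share of mRNAs (y axis) at or below each log2 change, miR-155 over GFP (x axis), in RNA-seq reads (left) and TAIL-seq tags (right), by best 3′-UTR site to miR-155-5p. The 8mer curve lies farthest to the left in both assays, with 25.0% of its mRNAs at or below the dotted 1.5-fold line in RNA-seq and 31.7% in tags. Tag curves of a few mRNAs run beyond the axis limits.

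More sites went with lower RNA. mRNAs with 1 site of 8mer or 7mer type changed by −0.26 (−0.28 to −0.24; n = 556), those with 2 sites by −0.35 (−0.39 to −0.30; n = 105) and those with 3 or more by −0.46 (−0.56 to −0.36; n = 22). Tags gave the same order, at −0.27, −0.34 and −0.55. Among 8mer mRNAs, a lone 8mer went with −0.35 (n = 119), an 8mer and a 7mer with −0.50 (n = 37) and at least 2 8mers with −0.65 (−0.80 to −0.50; n = 8) in reads. Tags did not keep that order, with −0.42 (n = 97), −0.58 (n = 36) and −0.44 (−0.69 to −0.18; n = 6). In the 9 mRNAs whose closest pair of sites started 8 to 60 nt apart, the mean RNA change was −0.72 (−0.88 to −0.56), compared with −0.33 (−0.37 to −0.29) in the 117 whose sites were all more than 60 nt apart. The medians were closer, at −0.53 and −0.28, and 4 of the 9 and 40 of the 117 had an 8mer. Those 9 were Add3, Fbf1, Lgalsl, Rps6ka5, Tcf12, Tcf4, Trim2, Usp15 and Zfp317, and the spacing rule was chosen after other values had been seen. Lgalsl passed only because the minimum was set on the GFP value.

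The 8 mRNAs with at least 2 8mers did not respond alike. Gpd1l, Jarid2, Tenm3 and Wwc1 retained 0.464 to 0.509 of their RNA. Jarid2 (29 and 68 reads) would fall below 10 RPM in the mean of both cultures, and passed only because of its GFP value. Tcf4 retained 0.703, Sh3glb1 0.805 and Sf3b1, a core splicing factor, 0.861. Nlgn1, the postsynaptic adhesion protein neuroligin 1, was at 1.08 (0.809 to 1.47).

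The change depended on where the seed match lay. An 8mer in the coding region, without a seed match in the 3′ UTR, went with a mean RNA change of −0.11 (−0.16 to −0.06; n = 74), about the size of that of a 3′-UTR 6mer, and in tags the value was −0.07 with an interval that includes 0 (−0.16 to 0.03; n = 48). With a seed match in the 5′ UTR only, it was −0.01 (−0.09 to 0.06; n = 37). Among the 119 mRNAs with a lone 8mer as their single site, the median RNA change was −0.42 where AU bases made up more than 63.3% of the 15 nt on each side (n = 56) and −0.20 in the rest (n = 63), but the shares that were lower by 1.5-fold were 21.4% and 22.2%. By place in the 3′ UTR, sites in its first 25% had a median of −0.45 (n = 21), those in its middle −0.30 (n = 54) and those in its last 25% −0.27 (n = 44). Of mRNAs with a 3′ UTR of at most 2588 nt, 30.0% were lower by 1.5-fold, and of those with a longer one 13.6%.

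Sites to other miRNAs were used as a check of specificity. 8mers to the passenger strand miR-155-3p, in mRNAs without a 3′-UTR site to miR-155-5p, went with an RNA change of −0.03 (−0.08 to 0.02; n = 73) and a tag change of 0.03 (−0.04 to 0.09; n = 78). 8mers to miR-1, which the other miRNA virus expresses, had 0.01 (−0.03 to 0.05; n = 123) and −0.04 (−0.10 to 0.02; n = 119). When the miR-1 culture replaced the GFP culture as the control, mRNAs with an 8mer to miR-1 stood at 0.20, higher in the miR-155 than in the miR-1 culture, whereas those with an 8mer to miR-155-5p stood at −0.34.

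To identify single mRNAs, a change of at least 1.5-fold was required in both assays, among 2937 mRNAs past both minimums. This left 59 mRNAs that were lower in the miR-155 culture (2.01%) and 12 that were higher (0.409%). For scale, the miR-1 culture had 3.27% lower and 0.987% higher relative to the GFP culture, and the GFP culture 2.39% lower and 0.569% higher relative to the untransduced culture. Of the 59, 17 had a 3′-UTR 8mer, 9 a 7mer-m8, 8 a 7mer-A1 and 2 a 6mer, 3 had the seed match elsewhere and 20 had none. The share that was lower was 17 of 103 8mer mRNAs, or 16.5% (exact binomial interval over mRNAs 9.92 to 25.1), compared with 20 of 1904 no-site mRNAs, or 1.05% (0.643 to 1.62). These counts use minimums set on the GFP culture, which favour lower over higher calls. With the minimums set on the mean of both cultures, 41 mRNAs were lower and 19 higher. The lower ones then included 13 of 99 8mer mRNAs (13.1%) and 0.585% of no-site mRNAs. With the GFP minimums, none of the 437 mRNAs with an 8mer or 7mer was higher by 1.5-fold in both assays. The share was 0.409% over all mRNAs and 0.420% for no-site mRNAs. Both shares lie within the exact binomial interval over the 437 mRNAs, which reaches 0.841%. Across mRNAs, the changes in the 2 assays had a Pearson r of 0.44 over all 2937 and of 0.73 over the 103 with an 8mer. These are descriptions, since the points share their cultures and genes are not replicates.

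The 15 8mer mRNAs that were lowest by the weaker of both changes are described next, 1 of them left out. Lgalsl and Nfe2l2 in reads, and Rapgef2 and Ash1l in tags, would fall below a minimum set on the mean of both cultures. They passed only because the minimum was set on the GFP value. Lgalsl, a galectin-related protein, has a cluster of an 8mer and 2 7mer-A1 sites, which lie 366 to 459 nt from the end of its 3′ UTR. It had 29 reads in the GFP and 43 in the miR-155 culture, a ratio of 0.315 (0.192 to 0.523), and 64 and 20 tags, a ratio of 0.254 (0.145 to 0.425). Nfe2l2 encodes NRF2, the transcription factor that induces antioxidant genes. It had 34 and 48 reads, a ratio of 0.300 (0.189 to 0.479), and 29 and 12 tags, a ratio of 0.336 (0.156 to 0.679). Among the alternative controls, Nfe2l2 tags were as high in the miR-155 as in the miR-1 culture (ratio 1.12) while its reads were lower (0.595), so its reduction depended on the control.

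Membrane traffic and kinase genes were among the next. Necap1, which binds clathrin adaptors in endocytosis, had 80 and 174 reads (ratio 0.462, 0.352 to 0.609) and 227 and 126 tags (0.451, 0.359 to 0.563). Ap3d1, the delta subunit of the AP-3 adaptor that sorts cargo to lysosomes and synaptic vesicles, had 143 and 385 reads (0.571, 0.470 to 0.697) and 134 and 70 tags (0.424, 0.313 to 0.570). Both values of both mRNAs lay below 1 with their intervals, and both mRNAs have a single 8mer. Csnk1g2, a casein kinase 1 isoform, had 64 and 122 reads (0.405, 0.297 to 0.556) and 35 and 18 tags (0.417, 0.223 to 0.757). Rapgef2, an exchange factor for the small GTPase Rap, had 151 and 305 reads (0.429, 0.352 to 0.524) and 24 and 15 tags, for which the interval included 1 (0.507, 0.247 to 1.01). It was thus firm in reads only.

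Further 8mer mRNAs encode adhesion, endoplasmic reticulum and mitochondrial proteins. Tenm3, a teneurin that guides synaptic wiring, has 2 8mers and had 112 and 263 reads (0.498, 0.398 to 0.627) and 33 and 18 tags (0.443, 0.235 to 0.810). Pcdh9, a protocadherin, had 127 and 279 reads (0.466, 0.377 to 0.580) and 46 and 30 tags (0.529, 0.323 to 0.857). Both were below 1 with their intervals in each assay. Tmx4, an endoplasmic reticulum thioredoxin-like protein, had 135 and 277 reads (0.435, 0.353 to 0.539) and 62 and 24 tags (0.314, 0.188 to 0.511). Armcx2, an X-linked armadillo-repeat protein, had 140 and 271 reads (0.411, 0.334 to 0.507) and 63 and 29 tags (0.374, 0.232 to 0.589). Relative to the miR-1 culture, Tmx4 stood at 0.487 and Armcx2 at 0.516 in reads.

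Ndufs1 and Gpd1l stand for metabolism. Ndufs1, the largest subunit of respiratory complex I, had 324 and 874 reads (0.572, 0.503 to 0.652) and 115 and 91 tags (0.642, 0.482 to 0.853), with its 8mer in a 3′ UTR of only 239 nt. Gpd1l, a glycerol-3-phosphate dehydrogenase, has 2 8mers and had 65 and 142 reads (0.464, 0.343 to 0.632) and 43 and 31 tags (0.585, 0.356 to 0.951). The last to be described are Fam126b, a relative of the phosphoinositide kinase adaptor hyccin, and Ash1l, a histone H3 methyltransferase. Fam126b had 52 and 107 reads and 35 and 19 tags, at ratios of 0.437 and 0.441, but its tags stood at 0.930 relative to the miR-1 culture. Ash1l had 83 and 246 reads and 25 and 14 tags, at ratios of 0.629 and 0.455.

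All 15 were lower in RNA relative to both other cultures as well, and 14 were lower in tags relative to the miR-1 culture, with Nfe2l2 as the exception. Past 1.5-fold in both assays were 9 of the 15 with the miR-1 control and 11 with the untransduced control, in comparisons where 2.28% and 4.42% of all mRNAs were lower. The 3 comparisons share the miR-155 libraries, so that these counts are not independent of each other. Just past the threshold were Glrb, the glycine receptor beta subunit, at 0.661 in reads and 0.607 in tags, and Ttl, tubulin tyrosine ligase, at 0.666 and 0.568, which complete the 17.

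**Figure D2:**
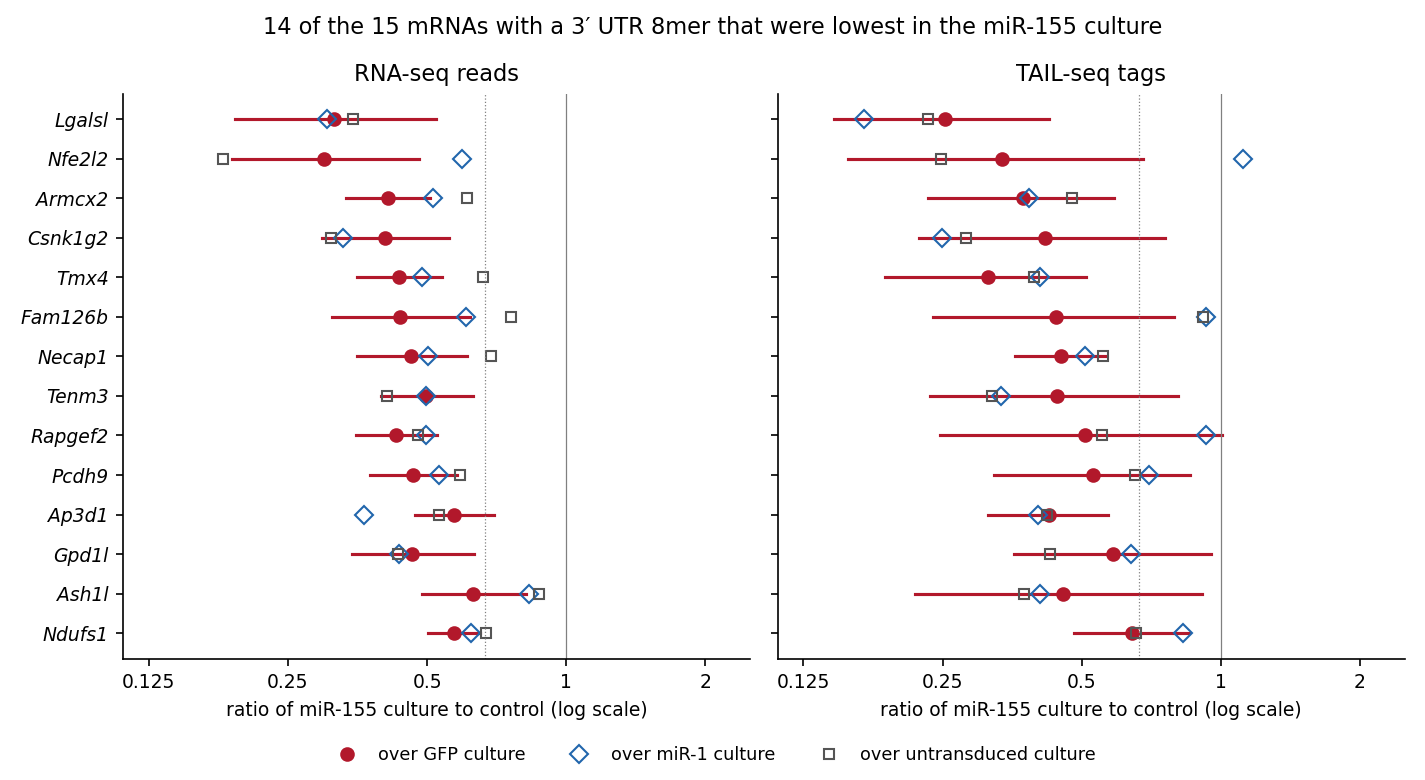
Ratio of the miR-155 culture to each control (x axis, log scale) in RNA-seq reads (left) and TAIL-seq tags (right) for 14 of the 15 mRNAs with a 3′-UTR 8mer that were lowest by the weaker of both changes. Filled circles with 95% counting intervals use the GFP control, open diamonds the miR-1 control and open squares the untransduced control, and the dotted line marks a 1.5-fold lower ratio. In reads all 14 lie below 1 for every control, and in tags Nfe2l2 lies above 1 for the miR-1 control (1.12).

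The 17 reduced mRNAs with a 7mer as their best site were named after their values were seen. Sdcbp, the adaptor syntenin that acts in exosome formation, had the lowest RNA ratio of them, with 114 and 138 reads (0.257) and 57 and 23 tags (0.328). Selenot, an endoplasmic reticulum selenoprotein, has 3 sites and had 106 and 225 reads (0.450) and 61 and 37 tags (0.492). Add3, an adducin of the membrane skeleton, has 2 sites and stood at 0.557 and 0.509. Pam, the enzyme that amidates neuropeptides, had the most reads, with 627 and 1708 (0.578) and 235 and 182 tags (0.629), and Atp5mpl, a subunit-associated protein of ATP synthase, had the most tags, with 558 and 427 (0.621). Atp8a1, a phospholipid flippase, had ratios of 0.453 and 0.626, Arl2bp of 0.541 and 0.383, Lmbrd1 of 0.543 and 0.513, and Cstf2, a cleavage and polyadenylation factor, of 0.424 and 0.534. The others were Lancl2, Lin7c, Stx16, Hat1, Nudt19, Pdhx, Dtna and Med21. Of these, Stx16, Hat1 and Med21 in reads, and Dtna in tags, would fall below a minimum set on the mean of both cultures. They passed only because the minimum was set on the GFP value. Of the 34 reduced 8mer or 7mer mRNAs, 31 were also lower in both assays relative to the miR-1 culture and 18 by 1.5-fold; of the 20 reduced no-site mRNAs, the counts were 11 and 2. Relative to the untransduced culture, the counts were 32 and 20 of the 34 site mRNAs and 18 and 13 of the 20 no-site mRNAs. Hat1, which was not lower relative to the miR-1 culture (1.01 and 1.35), is among the exceptions. Over all mRNAs, 2.28% were lower by 1.5-fold in both assays relative to the miR-1 culture and 4.42% relative to the untransduced culture. The mRNAs counted were chosen for low values in the miR-155 libraries, which all these comparisons share, so the counts are not independent.

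An annotated site did not ensure a reduction. Sites were searched in whole RefSeq 3′ UTRs, and whether the 3′ ends used in these cultures include them was not tested. The 5 8mer mRNAs with the highest changes were Camsap1, Trim44, Exoc8, Nlgn1 and Hp1bp3. Camsap1, which caps microtubule minus ends, had 46 and 254 reads, a ratio of 1.17 (0.853 to 1.64), and 31 and 46 tags (1.20, 0.748 to 1.96). Trim44 had 62 and 332 reads (1.14, 0.864 to 1.52) and 86 and 149 tags (1.41, 1.07 to 1.86). None of the 5 reached 1.5-fold, and the interval of only 1 of these 10 ratios, that of Trim44 tags, excluded 1.

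The 5 mRNAs with the most annotated sites differed among themselves. Nlgn1 has 7 sites, 2 of them 8mers, in a 3′ UTR of 11830 nt, and had 56 and 285 reads (1.08, 0.809 to 1.47) and 33 and 52 tags (1.28, 0.811 to 2.04). Gria2, the AMPA receptor subunit that sets calcium permeability, has 4 sites including the AU-flanked 8mer shown above and had 793 and 3594 reads, a ratio of 0.962 (0.890 to 1.04), and 201 and 292 tags, a ratio of 1.18 (0.982 to 1.42). Gda, the guanine deaminase cypin, has 4 7mers and had 198 and 661 reads (0.708, 0.604 to 0.835) and 150 and 146 tags (0.790, 0.625 to 0.999). Tcf4, a basic helix-loop-helix transcription factor, has 3 sites and had 124 and 411 reads (0.703, 0.574 to 0.867) and 121 and 78 tags (0.523, 0.388 to 0.701). Rsf1, a chromatin remodelling factor with 5 7mers, had 47 and 187 reads (0.844, 0.610 to 1.19) and, below the tag minimum, 12 and 9 tags (0.609, 0.227 to 1.57).

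Of 33 targets of miR-155 known from other cell types, 32 were in the files and 10 passed 10 RPM. The RNA of all 10 was below its GFP level, with a median log2 change of −0.51 (all mRNAs −0.03), and 5 were lower by 1.5-fold (6.83% of all mRNAs): Jarid2, a cofactor of polycomb repressive complex 2 (29 and 68 reads, 0.498), Peli1 (36 and 93, 0.548), the clathrin assembly protein Picalm (112 and 325, 0.616), Kbtbd2 (51 and 157, 0.653) and Rcn2 (98 and 303, 0.656). Of these, Jarid2 would fall below 10 RPM in the mean of both cultures, and it had only 5 and 4 tags. In tags the median over 11 was −0.25, with 7 below their GFP level, 3 lower and 1 (Fos) higher by 1.5-fold. Peli1 stood at 1.14 and Irf2bp2 at 1.34 in tags. None of the 6 measured in both assays was past 1.5-fold in both. The others were Arid2 (0.755), Hivep2 (0.823), Rheb (0.880), Irf2bp2 (0.892) and Rictor (0.990). The transcription repressor Bach1, a classic target, had 20 and 93 reads, below the minimum, at a ratio of 0.987 (0.604 to 1.69), and the immune targets Socs1, Spi1, Ikbke and Csf1r had at most 5 reads in either library.

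Of the mRNAs without any site, 20 were lower and 8 were higher by 1.5-fold in both assays. The lower ones included glial, smooth-muscle and secreted-protein genes. Lcn2, an acute-phase protein of reactive astrocytes, had 28 and 56 reads (0.424, 0.265 to 0.694) and 77 and 31 tags (0.327). Acta2, smooth-muscle actin, had 30 and 47 reads (0.332, 0.206 to 0.544) and 20 and 11 tags, and Tagln, another smooth-muscle protein, had 44 and 97 reads (0.468) and 54 and 25 tags. Pla2g7, a secreted phospholipase, had 228 and 526 reads (0.490, 0.418 to 0.574) and 240 and 154 tags (0.521). Ecrg4, Psph, Hapln1, Ephx4, Mgst1 and Kcnip1 make up the 10 lowest, at 0.356 to 0.538 in reads. Of the 10, Lcn2, Acta2, Ecrg4, Psph, Ephx4 and Mgst1 would fall below 10 RPM in the mean of both cultures. They passed only because the minimum was set on the GFP value. Relative to the miR-1 culture, Acta2 (5.39), Tagln (11.1), Ecrg4 (3.41), Pla2g7 (1.61) and Mgst1 (1.34) were higher in the miR-155 culture, so for these the direction was set by the choice of control.

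The 10 no-site mRNAs with the highest changes were Junb, Sowaha, Mal2, Pgs1, Slc17a7, Camk2n1, Hpcal4, Nf2, Sqle and Fam234b. Junb, an immediate-early transcription factor, had 36 and 311 reads (1.83, 1.30 to 2.67) and 37 and 111 tags (2.44, 1.66 to 3.64). Camk2n1, an inhibitor of CaM kinase II, had 40 and 293 reads (1.55, 1.11 to 2.22) and 227 and 428 tags (1.53, 1.30 to 1.81). Mal2, a membrane traffic protein, had 27 and 218 reads (1.71, 1.15 to 2.66) and 64 and 128 tags (1.62, 1.19 to 2.23), and was the 1 of the 10 that was also past 1.5-fold in both assays relative to the miR-1 culture, where 1.22% of all mRNAs were. Relative to the untransduced culture this also held for 1 of the 10 (0.501% of all mRNAs). Sqle, squalene epoxidase, was 1.52 times its GFP level in tags but 0.813 and 0.806 times its miR-1 level in reads and tags.

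Marker genes of cell types differed between the plates. The sum of 11 general neuron markers, among them Map2, Tubb3 and Snap25, was 5232 normalised reads in the GFP and 5481 in the miR-155 culture (1.05, 1.00 to 1.10). The 8 inhibitory neuron markers summed to 1435 and 981 normalised reads (0.684, 0.626 to 0.748), and tags gave 0.673. All 5 that passed the RNA minimum were below their GFP level: Gad1, which makes GABA, had 349 and 1144 reads (0.696, 0.616 to 0.786), Gad2 170 and 484 (0.604, 0.506 to 0.724), Npy 32 and 67 (0.444), Sst 25 and 88 (0.747) and Slc32a1 45 and 199 (0.938). Npy and Sst would fall below 10 RPM in the mean of both cultures, and passed only because the minimum was set on the GFP value. The excitatory markers stood the other way from the inhibitory ones, at 435 and 595 normalised reads (1.37, 1.17 to 1.60). Their tags summed to 1.22 (1.08 to 1.38) of the GFP level, but the median over 6 was −0.01, with Neurod2 (0.843), Tbr1 (0.921) and Bcl11b (0.938) below 1. Slc17a7, the vesicular glutamate transporter VGLUT1, had 43 and 316 reads (1.56, 1.13 to 2.20) and 47 and 94 tags (1.62). None of the 9 inhibitory and excitatory markers past the RNA minimum has an 8mer or 7mer.

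The inhibitory sum was 853 normalised reads in the miR-1 and 1002 in the untransduced culture, so the GFP culture was the highest of the 4. The excitatory sum was 679 in the miR-1 and 505 in the untransduced culture, so the GFP culture was the lowest. Fewer cells of a type and less RNA per cell cannot be told apart in such sums.

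Astrocyte markers summed to 1678 and 1168 normalised reads (0.696, 0.641 to 0.756), with values of 1478 in the miR-1 and 2227 in the untransduced culture. Slc1a3, the glutamate transporter GLAST, which has no site, had 257 and 786 reads (0.649, 0.563 to 0.750) and 82 and 56 tags (0.554, 0.387 to 0.788). Gfap had 62 and 145 reads (0.496, 0.366 to 0.679). The 10 oligodendrocyte-lineage markers summed to 60 and 167 reads in all, and 6 fibroblast and vascular markers to 27 and 93. The 10 microglial markers had 3 reads in the GFP and 4 in the miR-155 library, with 7 and 6 of them at 0.

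Immediate-early genes, which neurons switch on with activity, were higher in the miR-155 culture. The 16 genes summed to 270 and 452 normalised reads (1.67, 1.38 to 2.04) and to 1021 and 1921 normalised tags (1.88, 1.67 to 2.12). Of the 8 past the tag minimum, 5 were at least 1.5-fold higher (3.28% of all mRNAs): Fos (20 and 69 tags, 2.80), Junb (2.44), Egr4 (54 and 153, 2.30), Egr1 (88 and 217, 2.00) and Egr3 (60 and 116, 1.57). None of the 8 has an 8mer or 7mer. The sum was 475 normalised reads and 1588 normalised tags in the miR-1 culture, close to the miR-155 values, and 206 and 994 in the untransduced culture.

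Pathways that miR-155 targets in other cells had few measured members, so their counts past 1.5-fold are small. Over all mRNAs, 6.83% were lower and 2.54% higher by 1.5-fold in reads, and 9.93% were lower in tags. Of 12 mTOR-pathway mRNAs past the RNA minimum, the median change was 0.01, with 0 lower and 1 higher by 1.5-fold (Mtor itself, 43 and 327 reads, 1.61). Within that list, the 5 with a site had a median of −0.26 and the 7 without one 0.10. The 7 TGF-beta and BMP genes had a median of −0.22, with −0.36 for the 3 with a site and −0.03 for the others, and 1 was lower by 1.5-fold. The 6 NF-kB and cytokine genes had −0.16, and 1 of them, Peli1, was lower by 1.5-fold. Of 9 deadenylation and decay factors, 0 were past 1.5-fold in either direction (median −0.06). The 7 miRNA-pathway genes had a median of −0.15 in reads, and the 4 past the tag minimum −0.50 in tags, with 2 lower by 1.5-fold: Ago1 (32 and 10 tags, 0.254) and Prkra (38 and 24, 0.513). In reads 1 was higher by 1.5-fold, the nuclear processing enzyme Drosha (28 and 259 reads, 1.96, 1.33 to 3.01; tags 1.40, 0.834 to 2.39).

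Antioxidant genes, which BACH1 represses and NRF2 induces, were measured as 4 mRNAs in reads (median −0.20, 0 past 1.5-fold) and 8 in tags (median −0.13, 2 lower by 1.5-fold, beside 9.93% of all mRNAs). Those 2 were Hmox1, heme oxygenase 1, with 50 and 33 tags (0.536, 0.334 to 0.848) and a read ratio of 0.839, and Txnrd1, a thioredoxin reductase, with 53 and 43 tags (0.659, 0.430 to 1.00) and a read ratio of 0.687 (0.548 to 0.868). Fth1, ferritin heavy chain, had 1795 and 1608 tags (0.727, 0.679 to 0.778). None of these 3 has an 8mer or 7mer. Relative to the miR-1 culture, the list medians were 0.21 in reads and 0.22 in tags, in the other direction.

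Synaptic and housekeeping lists differed in their medians. Synaptic vesicle and release genes had a median of 0.13 over 19 mRNAs (−0.02 relative to the miR-1 culture), with 0 past 1.5-fold in reads. In tags, 3 of 16 were lower by 1.5-fold (9.93% of all mRNAs). Postsynaptic receptors and scaffolds had −0.06 over 24, with 3 lower by 1.5-fold (6.83% of all mRNAs). Among these were Shank1 (0.584) and Gria4 (0.628), of which Gria4 has a site. Ribosomal protein mRNAs had a median of 0.18 over 20 (all mRNAs −0.03), with 2 higher by 1.5-fold (2.54% of all mRNAs). They summed to 1.21 (1.16 to 1.27) of their GFP reads and 1.11 (1.08 to 1.15) of their tags. Of 67 oxidative phosphorylation mRNAs the median was −0.07 in reads, with −0.44 for the 6 that have a site. In tags the median was −0.21 over 79, of which 64 were below their GFP level, and the sum was 0.888 (0.870 to 0.906) of the GFP sum. Of 65 measured in both assays, 2 were lower by 1.5-fold in both (2.01% of all mRNAs). These were Ndufs1 and Atp5mpl, and both have a site. Stress and p53 genes had a median of 0.07, with 0 of 5 past 1.5-fold.

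At the median, the poly(A) tails of predicted targets were not shorter in the miR-155 culture. Over 1775 mRNAs with at least 50 tags in both cultures, the mean tail differed by a median of −0.88 nt, at medians of 102 nt in both. Tails of 242 mRNAs with an 8mer or 7mer differed by a median of 0.59 nt (quartiles −4.54 and 5.08), and those of 1238 no-site mRNAs by −1.50 nt (−5.81 and 3.08), a difference between the groups of 2.09 nt toward longer tails. With the miR-1 culture as the control this difference was 0.80 nt. By class, the median was 0.96 nt for 53 8mer, 0.86 nt for 112 7mer-m8 and −1.17 nt for 77 7mer-A1 mRNAs. Of the 11 site mRNAs that were lower by 1.5-fold in both assays and had enough tags, 9 had a longer tail in the miR-155 culture, with a median of 2.41 nt, whereas 45.0% of all mRNAs had a longer tail. Necap1, reduced to 0.451 of its tags, had mean tails of 110 and 116 nt.

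Single tail values were imprecise. The SD of the tail difference fell from 8.38 nt for mRNAs with 50 to 99 tags in the lower library to 3.31 nt for those with 400 or more, and tail means correlated at a Pearson r of 0.84 across mRNAs between both cultures. Of mRNAs with at least 100 tags in both, those that lengthened most were Shroom2 (95.7 to 114 nt), Dnajc5 (101 to 118 nt), Tmem59 (85.9 to 102 nt), Pcbp2 (100 to 115 nt) and Klhl2 (91.1 to 105 nt). Those that shortened most were Camk2d (117 to 98.3 nt), Vps35 (118 to 101 nt), Dld (110 to 94.3 nt), Dnaja2 (113 to 98.3 nt) and Ccng1 (86.7 to 72.5 nt). Of these 10, Dld alone has an 8mer or 7mer. The most abundant synthetic standards of 100 and 200 nt had mean tails of 107.4 and 191.4 nt in the GFP library and 107.7 and 189.5 nt in the miR-155 library.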

How the data were processed

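The authors deposited, per RefSeq gene, RNA-seq read counts with RPM values, and TAIL-seq tag counts with mean and median tail lengths in nt. Reads were counted by the authors over 1 coding region per gene without its first 50 nt, which the deposited lengths matched for 98.7% of 14473 genes. The reads on genes were 18.3% (GFP) and 18.5% (miR-155) of the total behind the deposited RPM. The submitters' processing notes name mm10, STAR 2.4.2 and bedtools. Spike-in standards, 19.0% and 15.1% of tags, did not enter the tag totals.

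Sites were searched in RefSeq GRCm38.p6 transcripts, with 15021 of 15186 accessions having a 3′ UTR. miR-1 sites were those of miR-206, which has the same seed. Changes were log2 ratios of counts per total on genes, with no pseudocount and no gene at 0 in the miR-155 culture past the minimums. Class effects are means minus the no-site median after regression on log10 3′-UTR length fitted on no-site mRNAs. Ratios have 95% Clopper-Pearson intervals. The scripts were tested on simulated data. With 1 library per group no test was run. The members, gene lists and rules were chosen with earlier results of these data known. Named mRNAs were the 15 8mer mRNAs lowest and 5 highest by the weaker of both changes, the 10 no-site mRNAs lowest and highest by it, published targets past 10 RPM, the 5 largest tail changes each way at 100 tags, list members past 1.5-fold in both assays, and the 5 mRNAs with most sites. Python 3.11.15, pandas 2.3.3 and scipy 1.17.1 were used. Results for 3 genes are not reported here.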

Additional observations from a re-analysis of the deposited data

How the results depend on the processing

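Limits: each culture was 1 plate, so the spread between plates is unknown, and the GFP RNA library is the shallowest. Of 95 alternative values of the comparisons, 64 stayed within the counting error (counts within 1.5 times), 31 moved and 0 reversed; the causes were not tested.

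The RNA change of 8mers was −0.35 with the minimum set on the mean of both cultures, −0.34 with the miR-1 and −0.32 with the untransduced control. For 7mer-m8 it was −0.30 at 1 read in each culture, −0.20 (miR-1), −0.18 (untransduced) and −0.20 (GC adjustment); for 7mer-A1 −0.19 at 30 RPM, −0.18 (miR-1), −0.20 (untransduced) and −0.19 (GC); for 6mers −0.17 at 1 read, −0.060 (miR-1), −0.059 (untransduced) and −0.070 (GC). Without length adjustment the 7mer tag change was −0.19. With the miR-1 control, 1, 2 and 3 or more sites gave −0.20, −0.29 and −0.61, and site tails differed by 0.80 nt. Tags gave 0.025 for miR-155-3p and −0.041 for miR-1 8mers, which stood at 0.20 in reads with the miR-1 control.

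At 2-fold, 17 mRNAs were lower and 0 higher in both assays, and 8.74% of 8mer mRNAs were lower. The 59 lower became 41 (mean minimum) and 194 (untransduced). The 12 higher became 19 (mean minimum), 41 (miR-1), 22 (untransduced) and 21 (DESeq2 size factors, which shifted changes by 0.04). The GC adjustment, median tails, list and named-gene alternatives were chosen after seeing the data.

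Relative to the miR-1 culture, log2 values reversed for the excitatory (−0.12) and inhibitory (0.087) list medians. Smaller list medians that changed sign were antioxidant (0.21), miRNA-pathway (0.12), decay-factor (0.070), synaptic vesicle (−0.018), neuron-marker (0.055) and mTOR (−0.035). Reversed values of single mRNAs were Nfe2l2 tags (0.16), Psph tags (0.011), Nf2 reads (−0.10) and Sqle tags (−0.31). Reads and tags both reversed for Acta2 (2.43, 1.77), Ecrg4 (1.77, 1.20), Tagln (3.48, 1.54), Pla2g7 (0.69, 0.74), Mgst1 (0.42, 1.20) and Slc17a7 (−0.10, −0.16). Relative to the untransduced culture, tags reversed for Hapln1 (0.016), Kcnip1 (0.24), Nf2 (−0.040) and Sqle (−0.25).

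No paired analysis was possible because each culture has 1 library per assay.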

Other observations

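Transcript base composition moved with the RNA change. Across the 2786 no-site mRNAs, the Spearman correlation of the log2 RNA change (miR-155 over GFP) with transcript GC content was 0.29, and that of the tag change was 0.09. Median GC content was 45.5% in 8mer mRNAs and 51.3% in no-site mRNAs, and median 3′-UTR length was 2926 and 900 nt. With GC content added to the length adjustment, the 8mer change was −0.37 in reads and −0.45 in tags.

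The untransduced culture differed from the GFP culture more than the miR-155 culture did in tail length: mean tails were shorter in the GFP culture by a median of 8.43 nt over 1848 mRNAs.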
